A study of Homo sapiens with 32 samples.

Results

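The step from posterior foregut (S3) to pancreatic progenitors (S4) was examined in human embryonic stem cells that were being differentiated towards β-like cells. It rests on the 8 input libraries of these stages, 4 at S3 and 4 at S4, out of 32 libraries in the series. The 8 were chosen by their labels, which give the line (H1 or MEL1), the stage, the replicate (1 or 2) and the library type, so each line has 2 replicates at each stage. An input library is the RNA of the culture before the m6A antibody was added. The labels give no treatment or genetic change beyond the protocol, which was the same for both lines, and the study describes the replicates as independent biological samples. By the study's methods, cells reached S3 through GDF8 and CHIR-99021, then FGF7, and then FGF7 with a protein kinase C activator, the Hedgehog inhibitor SANT-1, retinoic acid and the BMP receptor inhibitor LDN-193189. From S3 to S4 the medium kept FGF7 and SANT-1, held less retinoic acid and no longer held the activator or LDN-193189.

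The posterior foregut is the stretch of gut endoderm from which pancreas, liver, duodenum and bile ducts arise, and its cells carry the pioneer factors FOXA1 and FOXA2 and the GATA factors. The pancreatic domain is set apart by PDX1 and then by NKX6-1, SOX9 and PTF1A, and its cells are multipotent until NEUROG3 starts the endocrine programme. Retinoic acid promotes the pancreatic fate, while Hedgehog signals oppose it.

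The deposited table holds reads counted in merged m6A peaks, so the level of a gene is the sum of its input reads over its peaks, scaled with TMM factors to the counted reads of its library (CPM). Sums could be formed for 7978 genes, of which 7973 had at least 10 input reads over the 16 input libraries of the series and were tested. NKX6-1, PTF1A, NKX2-2, RFX6 and NEUROG3 are not among them and were not analysed here. The S3 libraries held 4139505 to 4888115 counted reads and the S4 libraries 2652830 to 5283067. Mitochondrial transcripts took 12.9% to 27.5% of the reads at S3 and 15.4% to 17.7% at S4. In bulk RNA, fewer cells of a type and less RNA per cell cannot be told apart. Of 5457 genes averaging 10 CPM or more, none differed by more than 4-fold between the H1 S3 replicates, while 32 did so between the H1 S4 replicates, 41 between the MEL1 S3 replicates and 10 between the MEL1 S4 replicates. In 31 of the 32, H1 S4 replicate 2 was the higher library, and 3 of them (MAB21L2, PTH1R and ADAMTS15) are among the genes called below.

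Stage changes were tested with edgeR's quasi-likelihood test on all 16 input libraries with cell line as a covariate. Adjusted p below are from this fit, with Benjamini-Hochberg adjustment over the 7973 genes, unless given within a line or for a difference between the lines. Those come from the same kind of test in the second model described below. A call required 2-fold or more in either direction together with an adjusted p below 0.1. At S4, 119 genes (1.49%) were called higher and 28 (0.351%) lower than at S3. The median log2 fold change was 2.06 over the genes called higher and -1.51 over those called lower, against 0.02 over all genes tested. Of the 147 called genes, 110 (1.38% of genes tested) also changed by at least 2-fold in the same direction in H1 and in MEL1, 92 upwards and 18 downwards, and are said here to have changed in both lines. In 3 of the 110, ADAMTS8, PTX3 and NOG, no MEL1 library held more than 3 reads at either stage, so that the change of these 3 was measured in H1. In 23 more, no MEL1 library held more than 3 reads at S3, and in 6 no H1 library did. The size of the change in that line then depends on the prior count. The 2-fold within each line required no adjusted p. MAB21L2, CCBE1 and ADAMTS15 met it with adjusted p of 0.168, 0.159 and 0.254 in the contrast within MEL1. The call held in each of 8 refits that left out 1 library for 54 of the 147 genes, 42 higher and 12 lower. Leaving out MEL1 S3 replicate 1 gave 58 genes higher, 15 lower and 60 that changed in both lines. Without H1 S3 replicate 2, 77 genes were higher. Without MEL1 S4 replicate 2, 70 were higher and 70 changed in both lines, and without H1 S4 replicate 2, 66 changed in both lines.

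A second model gave each line its own stage means. In H1, 343 genes (4.30%) were called higher and 150 (1.88%) lower at S4, and in MEL1, 622 (7.80%) were called higher and 256 (3.21%) lower. The 493 genes called in H1 became 261, 270, 828 and 262 without H1 S3 replicate 1, H1 S3 replicate 2, H1 S4 replicate 1 and H1 S4 replicate 2. A total of 178 genes were called in each line, which is 36.1% of the H1 calls and 20.3% of the MEL1 calls. Of these, 126 were higher in each line, 20 were lower in each line and 32 went in opposite directions. The change itself differed between the lines for 769 genes (9.65%) by the interaction test of this model. Across all genes tested, the log2 fold changes in H1 and MEL1 had a Pearson's r of 0.22. This describes genes, which are not independent replicates.

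**Figure D1:**
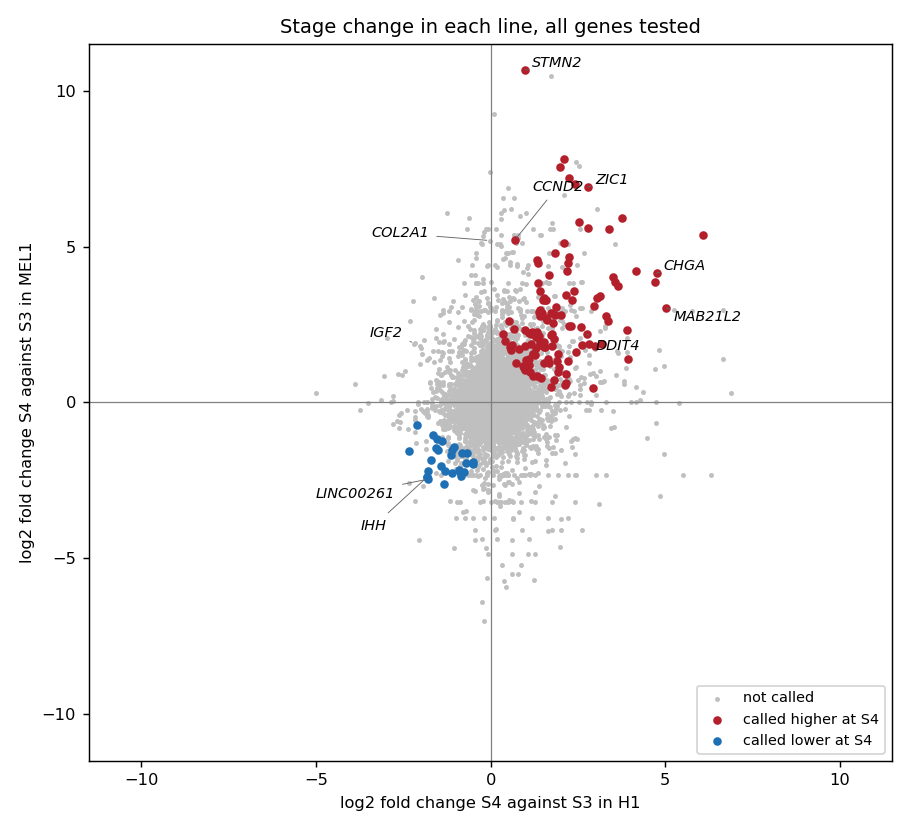
Log2 fold change of S4 against S3 in H1 (horizontal axis) and in MEL1 (vertical axis) for the 7973 genes tested, 1 point per gene, with the 119 genes called higher in red and the 28 called lower in blue. The called genes lie in the upper right and lower left corners, whereas genes such as COL2A1 and IGF2 lie off the diagonal. Fitted values of genes with no or few reads at 1 stage, such as STMN2 in MEL1, depend on the prior count. Values beyond 5 also include genes with more reads, COL2A1 at 5.19 and CCND2 at 5.197 in MEL1.

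Among markers of the earlier stage, FOXA2, GATA4 and PRDM1 fell and CXCR4 rose. FOXA2, a pioneer factor of gut endoderm, had 381 and 373 CPM in H1 and 839.5 and 779 CPM in MEL1 at S3, and 189 and 158 CPM in H1 and 262 and 240.5 CPM in MEL1 at S4. All S4 libraries were below all S3 libraries, and FOXA2 fell in both lines (log2 fold change -1.42, SE 0.22, adjusted p = 0.00481). GATA4, a zinc-finger factor of foregut endoderm, measured 263 and 261 CPM in H1 and 577 and 578 CPM in MEL1 at S3. At S4 it measured 112 and 84.1 CPM in H1 and 137 and 145 CPM in MEL1, again with no overlap between the stages (log2 fold change -1.695, SE 0.299, adjusted p = 0.0106). PRDM1, a transcriptional repressor expressed in endoderm, was the other foregut gene called lower (log2 fold change -1.303, SE 0.24, adjusted p = 0.0148), and it declined within each line although the lines started from different levels. In all, 3 of 21 genes of the foregut and endoderm list were called lower, against 0.351% of all genes, and the median of the list was -0.61. Within H1, 9 of the 21 were called lower, against 1.88% of all genes, and 2 higher, against 4.30%. Within MEL1, 6 were called lower, against 3.21%, and 6 higher, against 7.80%. The list medians were -0.92 in H1 and -0.24 in MEL1. For 8 of the 21 the change differed between the lines, against 9.65% of all genes. Among the listed foregut markers that were not called, GATA6 had a log2 fold change of -0.72 (adjusted p = 0.164), FOXA1 of -0.85 (adjusted p = 0.112), HHEX of -1.18 (adjusted p = 0.565), SOX17 of 0.02 (adjusted p = 0.992) and HNF4A of -0.61 (adjusted p = 0.589). Libraries of GATA6 did not overlap between the stages, with 57.1 and 54.6 CPM in H1 and 72.3 and 77.6 CPM in MEL1 at S3 and 32.8 and 36.1 CPM in H1 and 40.3 and 49.4 CPM in MEL1 at S4. CXCR4, a chemokine receptor that marks definitive endoderm, went the other way. It rose from 26.8 and 31.5 CPM in H1 and 1.25 and 2.48 CPM in MEL1 at S3 to 80.2 and 179 CPM in H1 and 25.6 and 16.6 CPM in MEL1 at S4 (log2 fold change 2.47, SE 0.46, adjusted p = 0.014), without overlap within either line.

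Among markers of the later stage, PROX1 rose, and no rise of PDX1, SOX9, MNX1, ONECUT1, HES1 or ISL1 passed the test over both lines. PDX1, the factor that defines pancreatic endoderm, had 36.5 and 29.2 CPM in H1 and 31.8 and 25.5 CPM in MEL1 at S3 and 21.5 and 19.5 CPM in H1 and 16.8 and 17.3 CPM in MEL1 at S4. Every S4 library was below every S3 library, yet the difference did not pass the test (log2 fold change -0.69, SE 0.67, adjusted p = 0.732). In the contrasts within each line, PDX1 fell with an adjusted p of 0.073 in H1 (log2 fold change -0.69) and 0.0507 in MEL1 (-0.74). Both falls were short of the 2-fold that a call required. PDX1 was present in all 8 libraries, against a mean of 0.397 CPM in the 4 libraries of undifferentiated cells (S0). Immature β-like cells (S6) had a mean of 32.5 CPM, with 3.02 and 2.2 CPM in H1 and 67.2 and 57.7 CPM in MEL1. SOX9, which maintains the progenitor pool, had 26.2 and 23.3 CPM in H1 and 9.01 and 9.702 CPM in MEL1 at S3 and 34.6 and 34.3 CPM in H1 and 23.5 and 23.2 CPM in MEL1 at S4, with no call (log2 fold change 0.75, SE 0.48, adjusted p = 0.555). Within each line both S4 libraries of SOX9 were above both S3 libraries. In the contrast within MEL1, SOX9 was called higher (log2 fold change 1.32, adjusted p = 0.000661), while in H1 its log2 fold change was 0.48 (adjusted p = 0.178) and the difference between the lines did not pass the test (adjusted p = 0.114). Neither MNX1, a homeobox factor of the dorsal bud (log2 fold change -0.52, adjusted p = 0.796), nor ONECUT1, a hepatic and pancreatic regulator (log2 fold change 0.52, adjusted p = 0.849), was called. The same held for the Notch effector HES1 (log2 fold change 0.51, adjusted p = 0.486) and for the endocrine factor ISL1 (log2 fold change 0.62, adjusted p = 0.835), which was at most 1.51 CPM in any of the 8 libraries. Within MEL1, ISL1 passed the rule (adjusted p = 0.0854) with no read at S3 and at most 1.26 CPM at S4, so that its fitted change depends on the prior count. ONECUT1 was at 18.3 to 30.7 CPM in H1 and at 0.5005 to 2.26 CPM in MEL1. Of the 21 progenitor markers tested, 1 was called higher, against 1.49% of all genes, and 2 lower, against 0.351%. The 2 were FOXA2 and GATA4, which the foregut list also holds, and the median was 0.05. The 1 called higher was PROX1, a homeobox factor of early pancreas and liver. PROX1 rose from 4.73 and 2.47 CPM in H1 and 2.502 and 1.13 CPM in MEL1 at S3 to 11.6 and 10.8 CPM in H1 and 11.8 and 11.1 CPM in MEL1 at S4, with no overlap of the stages (log2 fold change 2.06, SE 0.41, adjusted p = 0.0214).

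**Figure D2:**
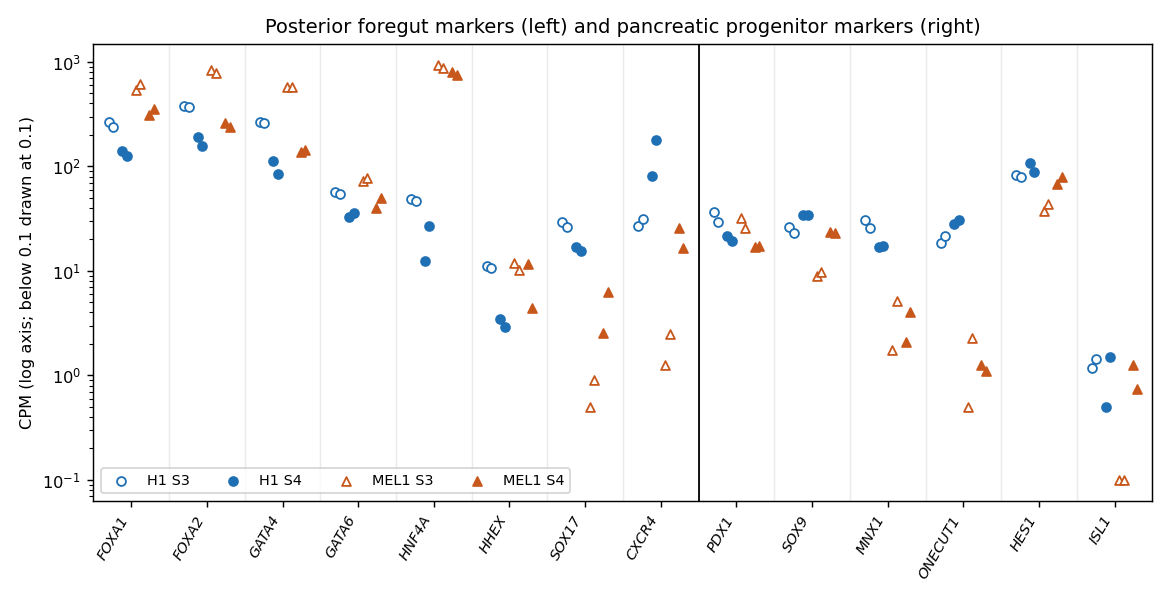
CPM (log axis) of 8 posterior foregut markers (left of the line) and 6 pancreatic progenitor markers (right) in the 8 libraries, with circles for H1, triangles for MEL1, open symbols for S3 and filled symbols for S4. FOXA2 and GATA4 were lower at S4 in both lines and CXCR4 higher, while PDX1 was at 16.8 to 21.5 CPM at S4 and 25.5 to 36.5 CPM at S3.

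The largest rise among genes averaging 1 CPM or more that changed in both lines was that of CHGA, chromogranin A, a protein of endocrine secretory granules. It had 18.9 and 22.2 CPM in H1 and 4.25 and 1.805 CPM in MEL1 at S3, and 625 and 484 CPM in H1 and 56.3 and 50.5 CPM in MEL1 at S4 (log2 fold change 4.496, SE 0.54, adjusted p = 0.000626). Each S4 library stood above each S3 library, and the call held without any 1 library. The means of CHGA at S0 and S6 were 153 and 759.6 CPM. At S0 it had 233 and 243 CPM in H1 and 62.3 and 73.1 CPM in MEL1. In MEL1 the S4 level was thus below that of undifferentiated cells. SFN, the epithelial 14-3-3 sigma protein, went from 0.197 and 0.412 CPM in H1 and 1.001 and 0.451 CPM in MEL1 to 1.48 and 9.19 CPM in H1 and 16.4 and 11.1 CPM in MEL1 (log2 fold change 4.17, SE 0.603, adjusted p = 0.00353). TFAP2B, an AP-2 transcription factor, rose from 3.15 and 1.85 CPM in H1 and 0 and 0.451 CPM in MEL1 to 31.1 and 32.4 CPM in H1 and 2.94 and 4.06 CPM in MEL1 (log2 fold change 3.52, SE 0.68, adjusted p = 0.0176). In MEL1, where no S3 library held more than 3 reads, it was at least 4.902-fold higher at S4. LGI4, a secreted leucine-rich glioma-inactivated protein, went from 1.38 and 1.44 CPM in H1 and 0.2502 and 1.805 CPM in MEL1 to 5.43 and 4.94 CPM in H1 and 26.9 and 33.2 CPM in MEL1 (log2 fold change 3.33, SE 0.68, adjusted p = 0.0222), and its rise was larger in MEL1 than in H1. ZIC1, a zinc-finger factor of neural progenitors, rose from 31.1 and 39.5 CPM in H1 and 0 and 0.226 CPM in MEL1 to 260.0 and 227 CPM in H1 and 19.3 and 16.2 CPM in MEL1 (log2 fold change 3.21, SE 0.55, adjusted p = 0.00789), which is at least 24.9-fold in MEL1. These 5 genes kept their call without each of the 8 libraries in turn.

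Among the 12 largest rises, 7 lost their call in some of those refits. For 5 of them H1 S4 replicate 2 stood far above the other S4 libraries. MAB21L2, a gene of eye and gut mesenchyme development, had 307 CPM in that library, against 5.43 CPM in H1 S4 replicate 1 and 14.7 and 16.2 CPM in MEL1. Its log2 fold change of 4.32 (adjusted p = 0.0484) became 3.11 without that library, with no call. PTH1R, the parathyroid hormone receptor, went from 3.43 to 1.56. The extracellular proteases ADAMTS8 and ADAMTS15 went from 4.42 to 1.46 and from 3.11 to 1.81, and CCBE1, a secreted factor of lymphatic development, from 3.13 to 1.596. None of these was called without it. The other two were the pentraxin PTX3 (log2 fold change 3.44, adjusted p = 0.0478) and the neuregulin NRG3 (log2 fold change 3.11, adjusted p = 0.0294), which were at most 21.3 and 6.31 CPM in any of the 8 libraries.

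**Figure D3:**
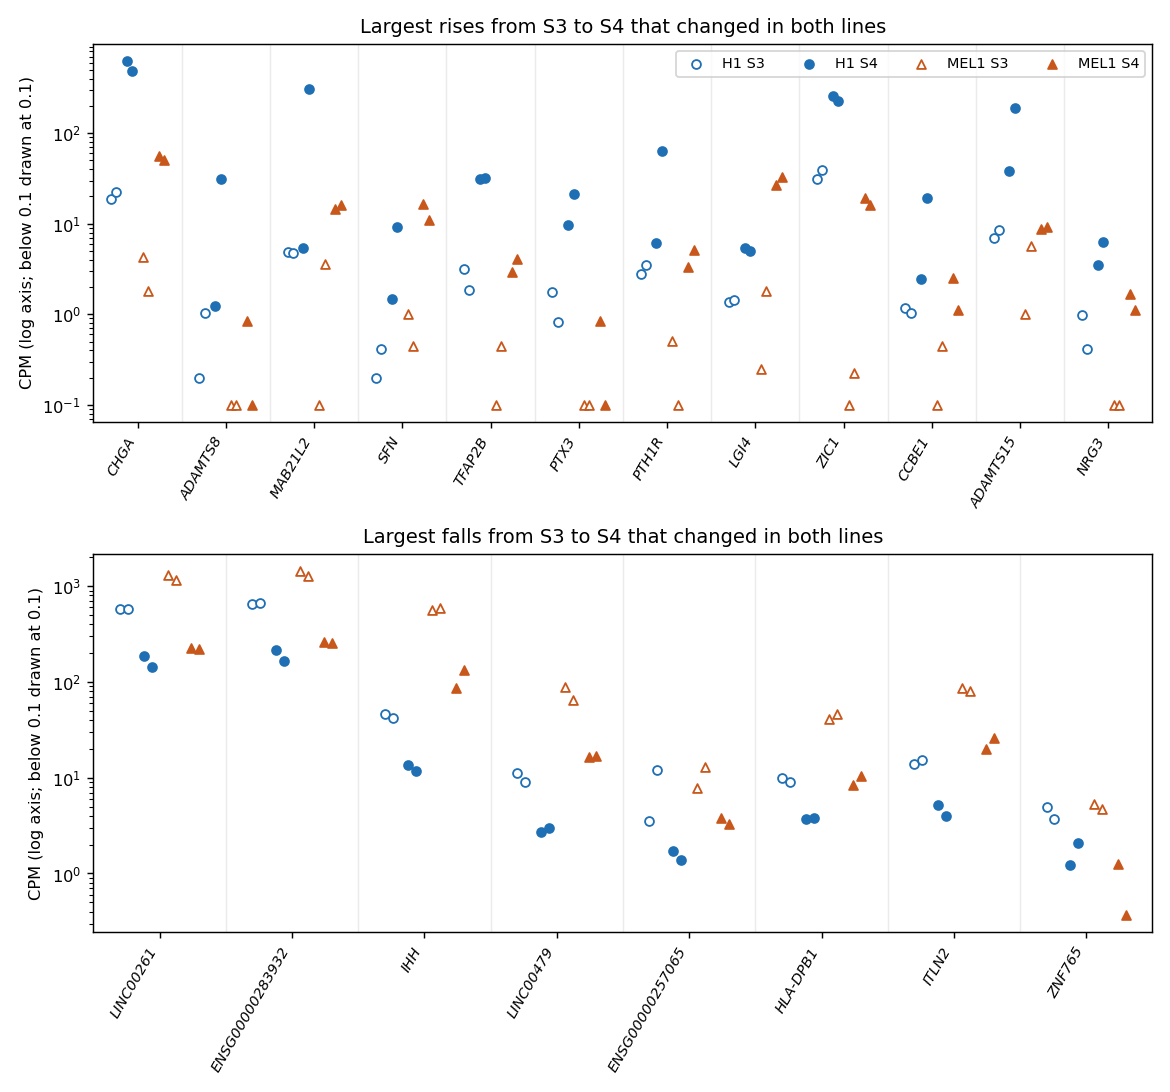
CPM (log axis) in the 8 libraries of the 12 strongest rises and the 8 strongest falls among genes averaging 1 CPM or more that changed in both lines. Circles are H1, triangles MEL1, open symbols S3 and filled symbols S4. CHGA, SFN and LGI4 separate the stages in every library, whereas MAB21L2, ADAMTS8 and PTH1R are far higher in 1 H1 library of S4 than in the others.

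The largest falls were led by a long non-coding RNA that lies beside FOXA2. LINC00261 had 570.4 and 575 CPM in H1 and 1303 and 1171 CPM in MEL1 at S3, and 186 and 144 CPM in H1 and 226 and 222 CPM in MEL1 at S4 (log2 fold change -2.16, SE 0.24, adjusted p = 0.000407). A second transcript, ENSG00000283932, had nearly the same values in each library (log2 fold change -2.12, SE 0.23, adjusted p = 0.000407), so that their reads may be shared and the pair is uncertain as separate genes. IHH, Indian hedgehog, a secreted ligand of gut epithelium, fell from 45.7 and 42.02 CPM in H1 and 557 and 593 CPM in MEL1 to 13.6 and 11.7 CPM in H1 and 86.1 and 132 CPM in MEL1 (log2 fold change -2.104, SE 0.28, adjusted p = 0.00212). MEL1 was still above the H1 level of S3 at S4, and within each line the stages did not overlap. The transcripts LINC00479 (log2 fold change -2.03, adjusted p = 0.00422) and ITLN2, an intestinal lectin with a close paralog (log2 fold change -1.78, adjusted p = 0.00439), fell as well, and both were higher in MEL1 than in H1 at each stage. HLA-DPB1, a class II antigen chain of a family with similar sequences, fell with a log2 fold change of -1.901 (adjusted p = 0.0449). For ZNF765, a zinc-finger gene of a large family, and the unnamed ENSG00000257065, the log2 fold changes were -1.75 (adjusted p = 0.0546) and -1.93 (adjusted p = 0.0316), at levels of at most 5.25 and 13.1 CPM. The calls of HLA-DPB1, ZNF765 and ENSG00000257065 were lost without 3, 6 and 2 of the 8 libraries.

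PODXL and ZFP42 were the genes of the pluripotency list called over both lines, 2 of 15, both lower, against 0.351% of all genes called lower. PODXL, podocalyxin, a sialomucin abundant on undifferentiated cells, fell from 1889 and 1898 CPM in H1 and 1513 and 1273 CPM in MEL1 to 735 and 554 CPM in H1 and 529 and 482 CPM in MEL1 (log2 fold change -1.51, SE 0.21, adjusted p = 0.00213). ZFP42, the stem cell zinc-finger protein REX1, fell from 77.1 and 82.8 CPM in H1 and 200.4 and 153 CPM in MEL1 to 28.4 and 27.98 CPM in H1 and 56.3 and 65.7 CPM in MEL1 (log2 fold change -1.52, SE 0.28, adjusted p = 0.0131). In both genes all S4 libraries were below all S3 libraries and the change was of like size in H1 and MEL1. The list's median was -0.48, with -0.53 in H1 and -0.26 in MEL1. In the contrast within H1, 6 of the 15 were called lower, against 1.88% of all genes, and none higher. Within MEL1, 2 were called lower, against 3.21%, and 4 higher, against 7.80%. For 6 of the 15 the change differed between the lines, against 9.65% of all genes. PODXL continued to a mean of 89.5 CPM at S6, while ZFP42 was at 58.9 CPM there.

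The list with the most called genes was that of glycolysis and hypoxia, with 7 of 23 higher, against 1.49% of all genes, and none lower. Its median was 0.97, with 1.005 in H1 and 0.904 in MEL1, and its summed level went from 12826 and 12961 CPM at S3 to 16279 and 21061 CPM at S4 in H1 and from 13246 and 13672 CPM to 17681 and 19362 CPM in MEL1. DDIT4, an inhibitor of mTORC1 induced by low oxygen and other stresses, had 113 and 102 CPM in H1 and 41.3 and 58.9 CPM in MEL1 at S3. At S4 it had 639 and 805 CPM in H1 and 237 and 218 CPM in MEL1, all above the S3 libraries (log2 fold change 2.52, SE 0.28, adjusted p = 0.000407). PFKFB4, which makes the allosteric activator of phosphofructokinase, went from 120.0 and 128 CPM in H1 and 50.05 and 51.9 CPM in MEL1 to 332 and 269.9 CPM in H1 and 152 and 138 CPM in MEL1 (log2 fold change 1.38, SE 0.22, adjusted p = 0.00481). BNIP3, a mitophagy receptor, went from 19.5 and 20.2 CPM in H1 and 31.3 and 33.6 CPM in MEL1 to 103 and 74.9 CPM in H1 and 47.1 and 74.1 CPM in MEL1 (log2 fold change 1.46, SE 0.29, adjusted p = 0.0214). The calls of these 3 held without each library in turn. BNIP3 rose by less than 2-fold in MEL1, with log2 fold changes of 2.16 in H1 and 0.904 in MEL1. LOX, the collagen cross-linking enzyme, was called (log2 fold change 1.92, adjusted p = 0.0322) and lost the call without MEL1 S3 replicate 1. The remaining called members, chosen after their values were seen, were HK2, the first enzyme of glycolysis (log2 fold change 1.14, adjusted p = 0.0572), SLC16A3, a lactate exporter (log2 fold change 1.84, adjusted p = 0.0743), and ENO2, an enolase (log2 fold change 1.04, adjusted p = 0.0552). Each was higher at S4 within both lines, and they lost the call without 6, 7 and 5 of the 8 libraries. ENO2 rose by less than 2-fold in H1 (log2 fold change 0.58). VEGFA (0.18), ADM (-0.45) and HIF1A (-0.51), also induced by or acting in hypoxia, were not called, with adjusted p of 0.851, 0.722 and 0.311. Neither were the abundant enzymes GAPDH (0.26, adjusted p = 0.649) and TPI1 (0.52, adjusted p = 0.291).

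The promoters of the called members are shown because 6 of the 7 hold the core letters of the hypoxia response element, to which HIF dimers bind. Windows of 45 bases are given from RefSeq promoters (250 bases before to 50 after a gene's start, build GRCh38.p14), 5′ to 3′ on the gene's strand, with the match in capitals. The letters searched were ACGTG on either strand, so a match on the opposite strand reads CACGT. Where a promoter held several matches, the window shows the one nearest the start.
DDIT4 (chr10:72273779-72273823, + strand): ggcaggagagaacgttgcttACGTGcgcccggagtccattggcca
HK2 (chr2:74834059-74834103, + strand): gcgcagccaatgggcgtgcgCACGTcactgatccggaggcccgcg
ENO2 (chr12:6914442-6914486, + strand): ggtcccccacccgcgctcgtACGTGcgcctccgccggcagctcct
BNIP3 (chr10:131982032-131982076, - strand): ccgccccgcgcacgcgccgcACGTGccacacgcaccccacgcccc
LOX (chr5:122078277-122078321, - strand): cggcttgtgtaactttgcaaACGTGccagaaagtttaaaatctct
SLC16A3 (chr17:82228967-82229011, + strand): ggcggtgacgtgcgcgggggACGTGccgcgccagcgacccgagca
The matches lie 125, 48, 118, 133, 42 and 55 bases before the start in this order. PFKFB4 had no match in its promoter window. Of all 35116 promoters 21.4% hold these 5 letters, and so do 1969 of the 5994 tested genes with a promoter in the table (32.8%, counting any promoter of a gene), 14 of 21 genes of the list (66.7%) and 28 of the 79 genes called higher with a promoter (35.4%). The match is short and HK2, LOX and SLC16A3 have 2, 3 and 5 promoters in the table, which gives them more chances of one. Binding was not measured.

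Genes of cell stress and of the first response to stimuli were the next list by count, with 5 of 34 higher, against 1.49% of all genes, none lower and a median of 0.84. CHAC1, which degrades glutathione and is a target of the factor ATF4, went from 20.9 and 13.4 CPM in H1 and 0.751 and 3.16 CPM in MEL1 to 160.2 and 122 CPM in H1 and 24.4 and 17.7 CPM in MEL1 (log2 fold change 3.05, SE 0.64, adjusted p = 0.0289). SESN2, a leucine sensor that restrains mTORC1, went from 29.8 and 35.8 CPM in H1 and 109.6 and 101 CPM in MEL1 to 167 and 128 CPM in H1 and 172 and 148 CPM in MEL1 (log2 fold change 1.32, SE 0.26, adjusted p = 0.0209). EGR1, an immediate early transcription factor, went from 13.99 and 13.6 CPM in H1 and 6.51 and 14.9 CPM in MEL1 to 32.3 and 36.9 CPM in H1 and 51.3 and 52.01 CPM in MEL1 (log2 fold change 1.77, SE 0.28, adjusted p = 0.0049). Stages of EGR1 and SESN2 did not overlap, and the 3 calls held without each library. SESN2 rose by less than 2-fold in MEL1, with log2 fold changes of 2.16 in H1 and 0.61 in MEL1. Its change differed between the lines (adjusted p = 0.000142, interaction test). GADD45B, a stress and growth arrest gene, was called (log2 fold change 1.76, adjusted p = 0.0472) and so was CEBPB, a bZIP factor (log2 fold change 1.43, adjusted p = 0.0759, chosen after its value was seen). Their calls were lost without 4 and 6 of the 8 libraries. CEBPB rose by less than 2-fold in MEL1 (log2 fold change 0.57). ATF4 itself, which is controlled largely at translation, had a log2 fold change of 0.27 (adjusted p = 0.555), and DDIT3 of 1.01 (adjusted p = 0.158). Outside the list, and again chosen after the values were seen, 2 further genes known as ATF4 targets were called, ADM2 (log2 fold change 1.93, adjusted p = 0.00213) and PCK2, the mitochondrial phosphoenolpyruvate carboxykinase (log2 fold change 1.44, adjusted p = 0.0076), with no overlap of the stages in ADM2. PCK2 was just short of 2-fold in MEL1, with log2 fold changes of 1.92 in H1 and 0.98 in MEL1. The promoter of CHAC1 holds the letters TGATGNAA, the composite element of ATF and C/EBP factors, on the opposite strand. The 48 bases around it are printed with the match in capitals, which starts 209 bases before the gene's start.
CHAC1 (chr15:40953242-40953289, + strand, GRCh38.p14): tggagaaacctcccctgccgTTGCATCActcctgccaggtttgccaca
The same letters occur on either strand in 2.44% of tested genes and in 3.62% of all promoters. Of the 32 stress genes with a promoter 2 hold them, and of the 5 called ones CHAC1 alone.

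**Figure D4:**
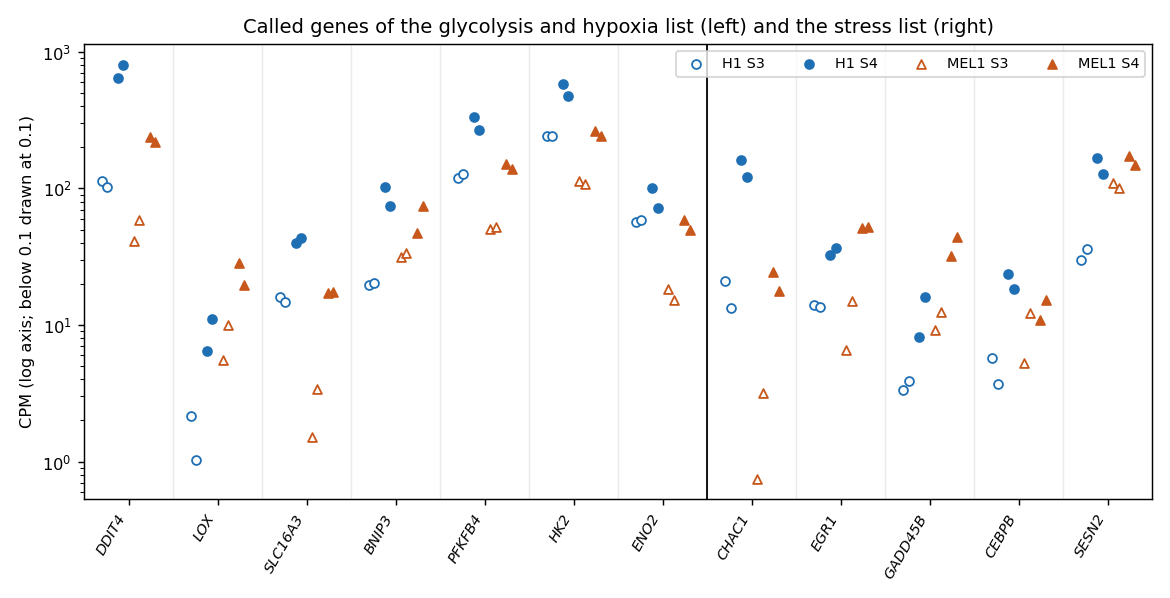
CPM (log axis) in the 8 libraries of the 7 called genes of the glycolysis and hypoxia list (left of the line) and the 5 called genes of the stress list (right), with circles for H1, triangles for MEL1, open symbols for S3 and filled symbols for S4. DDIT4 was at 218 to 805 CPM at S4 and 41.3 to 113 CPM at S3, and each gene was higher at S4 in H1, with CEBPB the only one whose MEL1 libraries overlap between the stages.

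In signalling pathways the genes called over both lines lay at several levels, against 1.49% of all genes called higher and 0.351% lower. Among 21 Hedgehog genes, the ligand IHH fell (above) and the co-receptor GAS1 rose from 67.6 and 64.5 CPM in H1 and 0.2502 and 12.2 CPM in MEL1 to 280.5 and 258 CPM in H1 and 38.2 and 52.01 CPM in MEL1 (log2 fold change 2.27, SE 0.57, adjusted p = 0.0587), a call lost without 6 of the 8 libraries. The receptor PTCH1 (log2 fold change 1.27, adjusted p = 0.138), the transducer SMO (log2 fold change -0.38, adjusted p = 0.38) and the target GLI1 (log2 fold change 0.53, adjusted p = 0.705) were not called. Of 42 BMP and TGF-β genes 3 were higher, against 1.49% of all genes. INHBE, an inhibin β subunit, went from 3.55 and 1.85 CPM in H1 and 1.001 and 6.09 CPM in MEL1 to 25.9 and 24 CPM in H1 and 14.3 and 12.5 CPM in MEL1 (log2 fold change 2.62, SE 0.42, adjusted p = 0.00545). ID3, a target of BMP signals, went from 73.3 and 58.9 CPM in H1 and 19.3 and 19.4 CPM in MEL1 to 107 and 84.2 CPM in H1 and 128 and 107 CPM in MEL1 (log2 fold change 1.59, SE 0.35, adjusted p = 0.0386), and the rise was larger in MEL1 (2.60) than in H1 (0.53, adjusted p = 5.3e-05 for the difference). The BMP antagonist NOG was called (log2 fold change 2.33, adjusted p = 0.0671) at no more than 8.64 CPM in the 8 libraries, and in MEL1, with at most 3 reads in a library, the size of its change was not measurable at this depth. The calls of ID3 and NOG were lost without 3 and 7 of the libraries.

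Of 27 FGF and ERK feedback genes, EGR1 (above) and FGF11, an intracellular FGF homologous factor, were higher. The share of all genes called higher, against which this and the next counts stand, was 1.49%. FGF11 rose from 5.71 and 5.36 CPM in H1 and 2.25 and 2.93 CPM in MEL1 to 21.2 and 16.7 CPM in H1 and 16.4 and 8.11 CPM in MEL1 (log2 fold change 1.94, SE 0.32, adjusted p = 0.0076). Among 26 Notch genes 4 were higher, against the same 1.49%: CHAC1 (above), which also restrains Notch maturation, the ligand JAG2 (log2 fold change 1.58, adjusted p = 0.094), the Numb homologue NUMBL (log2 fold change 1.13, adjusted p = 0.0484) and HES4 (log2 fold change 1.26, adjusted p = 0.0975). The last 3 lost their call without 7, 4 and 7 of the 8 libraries. NUMBL and HES4 rose by less than 2-fold in H1, with log2 fold changes of 0.40 and 0.81 there and 1.96 and 1.71 in MEL1. JAG2 had 1.17 in H1 (adjusted p = 0.141 in that contrast) and 2.19 in MEL1. In the Wnt list of 51 genes, NKD1, a feedback inhibitor, went from 8.08 and 6.18 CPM in H1 and 1.501 and 3.38 CPM in MEL1 to 38.3 and 29.2 CPM in H1 and 7.98 and 18.8 CPM in MEL1 (log2 fold change 2.31, SE 0.49, adjusted p = 0.0289), and the ligand WNT7B was called as well (log2 fold change 2.36, adjusted p = 0.0478). NKD1 lost its call without MEL1 S3 replicate 1, and WNT7B without 4 libraries, its log2 fold change being 1.67 without H1 S4 replicate 2. Of 23 retinoic acid genes only NR2F1, an orphan nuclear receptor induced by retinoic acid, was called (log2 fold change 1.55, adjusted p = 0.0738). Its 779 CPM in H1 S4 replicate 2 stood above 276 CPM in replicate 1, and the call was lost without 6 of the 8 libraries. In the contrast within MEL1, 8 Hedgehog, 13 BMP and TGF-β and 8 FGF and ERK feedback genes were called higher. So were 8 Notch, 13 Wnt and 4 retinoic acid genes, against 7.80% of all genes. In H1 the counts in this order were 4, 3, 3, 2, 7 and 2, against 4.30%. Those called lower were 1, 0, 1, 0, 4 and 0 in MEL1, against 3.21%. In H1 they were 1, 4, 1, 0, 6 and 2, against 1.88%.

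**Figure D5:**
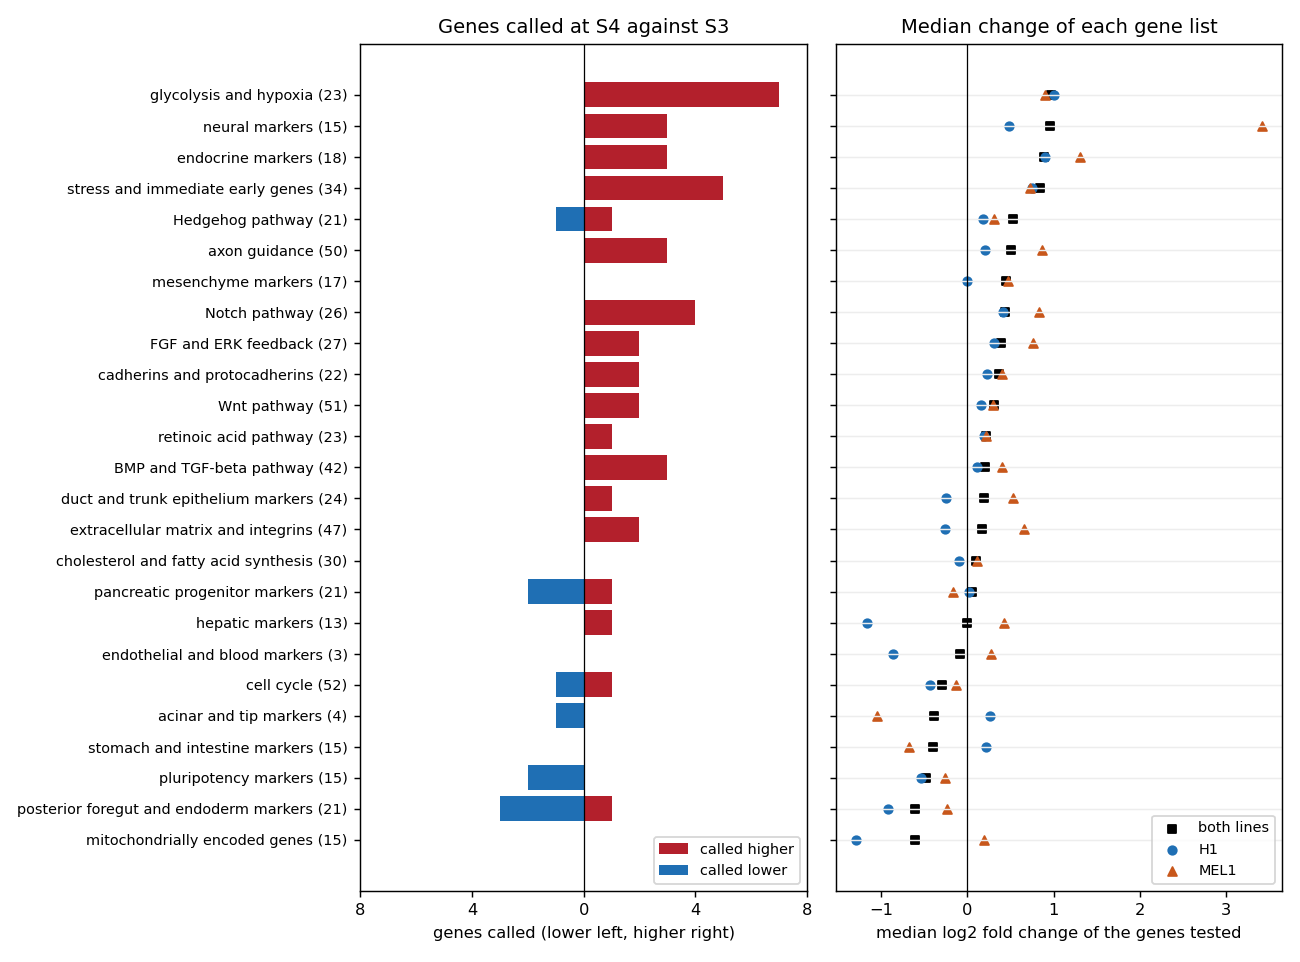
Left, the number of genes called lower (blue, to the left) and higher (red, to the right) at S4 for each gene list, with the number of genes tested in parentheses. Right, the median log2 fold change of the genes tested over both lines (squares), in H1 (circles) and in MEL1 (triangles). The glycolysis and hypoxia list has 7 genes called higher and nearly the same median in both lines, while the medians of neural, hepatic and mitochondrial genes lie apart between H1 and MEL1.

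Genes of cells other than pancreatic progenitors were measured because a culture can hold several cell types. Of 15 neural genes 3 rose, against 1.49% of all genes, all in both lines. They were ZIC1 (above), POU3F2, a POU factor of neural precursors (log2 fold change 2.55, adjusted p = 0.0191), and FOXD3, a neural crest factor (log2 fold change 3.104, adjusted p = 0.0478). In MEL1, POU3F2 was at least 9.14-fold higher at S4. FOXD3 lost its call without 5 of the libraries, and ZIC1 and POU3F2 kept it without each. In the contrast within MEL1, 11 of the 15 were called higher, against 7.80% of all genes, and 4 of 15 in H1, against 4.30%. The summed level of the neural genes went from 3772 and 3851 CPM at S3 to 3857 and 4622 CPM at S4 in H1 and from 84.8 and 123 CPM to 986 and 1082 CPM in MEL1. SOX1, a defining neural gene, had no read in MEL1 at either stage and was at 11.1 to 23.04 CPM in H1. Of 18 endocrine genes 3 rose, against 1.49% of all genes: CHGA (above), STMN2 and NEFL, the last a pair that neurons express too. Within H1, 6 of the 18 were called higher, against 4.30% of all genes, and 1 lower, and within MEL1 8 were called higher, against 7.80%, and none lower. STMN2, a microtubule regulator, had 5.71 and 8.03 CPM in H1 and 0 and 0 CPM in MEL1 at S3 and 14.3 and 13.2 CPM in H1 and 51.3 and 43.9 CPM in MEL1 at S4 (log2 fold change 3.44, SE 0.87, adjusted p = 0.0604), at least 66.7-fold higher in MEL1. NEFL, a neurofilament subunit, was called with a log2 fold change of 2.38 (adjusted p = 0.0974). Calls of STMN2 and NEFL were lost without 5 and 7 libraries. The endocrine median was 0.89, and GLIS3 (log2 fold change 1.58, adjusted p = 0.141) was not called. The part of other cell types in these changes was not tested.

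For 8 of 13 hepatic genes the change differed between the lines, against 9.65% of all genes. Over both lines only PROX1 was called, higher in each line, and the median was -1.16 in H1 and 0.43 in MEL1. Their summed level went from 14660.4 and 15833 CPM at S3 to 3236 and 4377 CPM at S4 in H1 and from 49601 and 55020.1 CPM to 93192 and 98804 CPM in MEL1. In the tests of each line, 7 of the 13 were called lower at S4 in H1, against 1.88% of all genes, and 1 higher. In MEL1 6 were called higher, against 7.80%, and none lower. The part of hepatic cells in the results of the lines was not tested. AFP, the fetal albumin homologue, was at 4.33 to 7.16 CPM in H1 and at 8369 to 26655 CPM in MEL1. No gene of the stomach and intestine list (15 tested), the mesenchyme list (17) or the endothelial and blood list (3) was called. The smallest adjusted p in each was that of VIL1, the brush border protein villin (log2 fold change -0.998, adjusted p = 0.137), of PDGFRA, a growth factor receptor of mesenchyme (log2 fold change -2.29, adjusted p = 0.126), and of ENG, an endothelial co-receptor (log2 fold change -1.38, adjusted p = 0.554). In the contrast within MEL1, 3 stomach and intestine genes were called higher and 4 lower, and 6 mesenchyme genes higher and 1 lower. The shares of all genes were 7.80% and 3.21%. In H1, 3 stomach and intestine genes were called higher and 1 lower, and 3 mesenchyme genes higher and none lower, against 4.30% and 1.88%. In each of these lists the change differed between the lines for 6 genes, against 9.65%. The endothelial genes summed to at most 80.7 CPM in any library. In the duct and trunk list, 1 of 24 rose, against 1.49% of all genes. BICC1, an RNA-binding protein of pancreatic ducts, was called at 2.76 (adjusted p = 0.0391), and not without MEL1 S3 replicate 1. Of 4 acinar genes GATA4 was called, lower as given above, against 0.351% of all genes.

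The adhesion, matrix and guidance genes called over both lines were all higher, against 1.49% of all genes. Of 47 matrix and integrin genes 2 were higher and none lower: COL11A1, a fibrillar collagen, and LOX (above). COL11A1 went from 49.3 and 53.4 CPM in H1 and 42.3 and 24.4 CPM in MEL1 to 138 and 116 CPM in H1 and 129.8 and 154 CPM in MEL1 (log2 fold change 1.73, SE 0.27, adjusted p = 0.00457) with no overlap. Among 22 cadherins, the protocadherin PCDH8 (log2 fold change 2.92, adjusted p = 0.0478) and CDH4 (log2 fold change 2.39, adjusted p = 0.0933) were higher, and among 50 axon guidance genes the ligand SLIT2, the semaphorin SEMA3D (log2 fold change 1.73, adjusted p = 0.0927) and the netrin receptor UNC5B (log2 fold change 1.48, adjusted p = 0.0679). SLIT2 went from 38.6 and 34.6 CPM in H1 and 7.51 and 9.93 CPM in MEL1 to 92.3 and 117 CPM in H1 and 26.9 and 40.6 CPM in MEL1 (log2 fold change 1.67, SE 0.33, adjusted p = 0.02). The calls of COL11A1 and SLIT2 held without each library, while PCDH8, CDH4, SEMA3D and UNC5B lost theirs without 5 or 6. UNC5B was just short of 2-fold in H1, with log2 fold changes of 0.97 in H1 and 2.31 in MEL1. Without H1 S4 replicate 2 the log2 fold change of CDH4 was 1.28. In the contrast within MEL1, 16 matrix and integrin genes, 5 cadherins and 22 guidance genes were called higher, against 7.80% of all genes. Each list had 1 called lower, against 3.21%. In H1 these lists had 4, 5 and 9 called higher, against 4.30%, and 3, 0 and 1 lower, against 1.88%. The change differed between the lines for 20, 6 and 14 genes, against 9.65%. The matrix median was -0.26 in H1 and 0.65 in MEL1.

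The cell cycle list of 52 genes had 1 call in each direction, against 1.49% of all genes called higher and 0.351% lower. Its median was -0.2999. MYBL2, an activator of G2 and mitosis genes, fell from 144 and 151 CPM in H1 and 186 and 166 CPM in MEL1 to 99.01 and 62.4 CPM in H1 and 44.1 and 31.7 CPM in MEL1 (log2 fold change -1.53, SE 0.26, adjusted p = 0.00789), and by more in MEL1 than in H1. CCND2, a G1 cyclin, was called higher (log2 fold change 2.68, adjusted p = 0.0514) and is described with the line differences. No gene of cholesterol and fatty acid synthesis was called among 30, the smallest adjusted p being that of NSDHL, a sterol dehydrogenase (log2 fold change 0.49, adjusted p = 0.164). None of the 15 mitochondrially encoded genes was called over both lines, and their median was -0.61, with -1.29 in H1 and 0.198 in MEL1. MT-ND4L, a complex I subunit whose reading frame overlaps MT-ND4, had the smallest adjusted p (log2 fold change -0.77, adjusted p = 0.21), and its change differed between the lines (adjusted p = 0.00312). In the contrast within H1, 11 of the 15 were called lower, against 1.88% of all genes, and none higher. Within MEL1, 2 were called higher, against 7.80%, and none lower. For 13 of the 15 the change differed between the lines, against 9.65%. Mitochondrial transcripts took 26.8% and 27.5% of H1 reads at S3 and 17.7% and 15.4% at S4. In MEL1 they took 15.3% and 12.9% at S3 and 16.5% and 15.7% at S4. With the mitochondrial genes left out before scaling, 113 genes were called higher and 30 lower.

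For the 4 genes with the strongest difference between the lines, the S3 cultures already differed. COL2A1, a fibrillar collagen of notochord and cartilage, had 1557 and 1556 CPM in H1 and 49.05 and 61.8 CPM in MEL1 at S3 and 1741 and 1362 CPM in H1 and 2114 and 1947 CPM in MEL1 at S4. H1 gave a log2 fold change of -0.01, and MEL1 one of 5.19, a difference of 5.197 (adjusted p = 2.88e-12, interaction test). CRABP2, a retinoic acid binding protein, had 3671 and 3662 CPM in H1 and 19.8 and 23.02 CPM in MEL1 at S3 and 3094 and 2257 CPM in H1 and 368 and 356 CPM in MEL1 at S4, a difference of 4.53 (adjusted p = 3.58e-11). NES, the intermediate filament nestin, had 2436 and 2507 CPM in H1 and 37.8 and 41.7 CPM in MEL1 at S3 and 2419 and 1834 CPM in H1 and 679.8 and 565 CPM in MEL1 at S4, a difference of 4.18 (adjusted p = 3.69e-11). In these 3, H1 was at a high level at both stages, while MEL1 rose from at most 61.8 CPM. CCND2 had 48.1 and 49.6 CPM in H1 and 13.8 and 20.3 CPM in MEL1 at S3 and 85.7 and 72.2 CPM in H1 and 634 and 624 CPM in MEL1 at S4, and ended highest in MEL1, with a difference of 4.51 (adjusted p = 3.69e-11). The call of CCND2 over both lines was lost without any 1 of the 4 MEL1 libraries. Of genes chosen after their values were seen, IGF2, a fetal growth factor shared with the record INS-IGF2, changed by -2.16 on the log2 scale in H1 and by 1.89 in MEL1. VTN, vitronectin of liver, had -1.51 and 1.64, and COL1A1, collagen I, -0.93 and 2.89, with adjusted p of 1.26e-10, 2.81e-09 and 4.45e-11 for the differences. In 38 of the 147 called genes and 15 of the 110 that changed in both lines, the change differed between the lines, against 9.65% of all genes.

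The antibody (IP) libraries of the same RNA preparations give a further count of each gene, which reflects methylation as well as expression. Of the 119 genes called higher in the input, 114 had a positive log2 fold change in the IP counts and 82 were also called higher there, against 6.96% of all genes, none lower. Of the 28 called lower, 27 had a negative value and 20 were called lower, against 6.56% of all genes, none higher. The median IP log2 fold changes were 1.81 and -1.42 for these groups in this order, against -0.02 over all genes. With the lines taken separately, 99 of the 119 had a positive IP value in both lines, and 23 of the 28 a negative one. The MEL1 S4 IP libraries held 2483580 and 2378881 counted reads, against 13815401 and 13756745 in those of MEL1 S3. CHGA had an IP log2 fold change of 5.57, DDIT4 of 2.91, LINC00261 of -2.85 and GATA4 of -2.45, all on the side of the input change. SFN (0.95) and NUMBL (0.09) had smaller IP values than input values (4.17 and 1.13) and were not called in the IP counts.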

How the data were processed

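Input and m6A IP libraries of H1 and MEL1 at 4 stages (2 replicates each) were sequenced. Per the labels and the study's methods, the authors counted reads in bins along Ensembl transcripts, used MeRIPtools for peak calling and merging, and deposited the raw counts of each merged peak, not normalized. The aligner and genome build are not given in the sources used here. The table holds 26104 merged peaks and 0 columns of no sample. Input counts were summed over the peaks of each of 7978 genes (7938 matched to a symbol), and 7973 genes with at least 10 reads over the 16 input libraries were tested. edgeR 4.0.16 in R 4.3.3 was used with TMM, stage and cell line (and, for each line and the interaction, a mean for each line and stage). All 4 stages share 1 estimate of the spread. Calls needed an adjusted p under 0.1 and 2-fold. The SE is the log2 fold change over the square root of F. At most 3 reads in each library of a group was taken as the floor, against which folds are limits.

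Named genes are the 12 largest rises and 8 largest falls that changed in both lines with a mean of at least 1 CPM, 13 stage regulators where measured, up to 4 called genes per list by adjusted p (the smallest adjusted p where none was called) and the 4 strongest line differences. HK2, ENO2, SLC16A3, CEBPB, ADM2, PCK2, IGF2, VTN and COL1A1, and uncalled genes given for comparison, were added after their values were seen. The comparison and the 26 lists were chosen with earlier results of these data known, and results of some list genes are not reported here. Replicate libraries differed by more than sampling noise (chi-square per degree of freedom 2.18 to 14.5). The same scripts were tested on simulated data. Alternatives were DESeq2 1.42.0, RLE and upper-quartile scaling, other filters, other sets of libraries, the peak with the most input reads, and IP counts. Plots were drawn with matplotlib 3.10.9 in Python 3.11.15.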

Additional observations from a re-analysis of the deposited data

Results flagged for a closer look

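Among 148 groups of 4 libraries (a named gene at 1 stage), 6 held a library whose gap to its neighbour exceeded Dixon's critical value at 95%, where chance gives about 1 in 20. In 5 of the 6 the library was H1 S4 replicate 2, with ADAMTS8 at 30.9 CPM, MAB21L2 at 307 CPM, PTH1R at 63.0 CPM, CCBE1 at 19.1 CPM and ADAMTS15 at 192 CPM. EGR1 stood apart at 6.51 CPM in MEL1 S3 replicate 1.

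For 16 named genes the change from S3 to S4 differed between the lines by the interaction test of edgeR, with differences given as the log2 fold change in MEL1 minus that in H1. The difference was positive for COL2A1 (5.197), CRABP2 (4.53), CCND2 (4.51), NES (4.18), LGI4 (2.94), ID3 (2.07) and NUMBL (1.56). MT-ND4L had a difference of 1.25. The values of STMN2 (9.67), POU3F2 (5.69), NEFL (5.57) and ZIC1 (4.12) depend on the prior count, since no MEL1 library at S3 held more than 3 reads of them. The difference was negative for PDGFRA (-2.23), SESN2 (-1.56), MYBL2 (-1.34) and BNIP3 (-1.25), with adjusted p from 0.000142 (SESN2) to 0.0568 (PDGFRA).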

How the results depend on the processing

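No named gene that was called changed direction under an alternative that was run. Genes called higher numbered 247 with DESeq2, 269 with the 8 libraries of S3 and S4 alone, 555 with IP counts, 24 without cell line, 75 with the replicate block and 76 at an adjusted p under 0.05, against 119. Genes called lower numbered 50, 64, 524, 4 and 18 under the first 5 of these and 51 with no fold threshold, against 28. Genes that changed in both lines numbered 174, 193 and 548 with DESeq2, the 8 libraries and IP counts, against 110. In H1, IP counts gave 3080 and no fold threshold 1150 genes, in MEL1 1745 and 1861, and IP counts gave 3395 line differences. Leaving out 1 library gave 58 to 163 genes higher, 15 to 31 lower, 60 to 143 in both lines, 261 to 828 in H1, 679 to 927 in MEL1 and 539 to 1021 line differences. The cause of these shifts was not tested. RLE and upper-quartile scaling, other filters and the peak with the most reads kept each count within 1.5 times. Of 59 called named genes, 59 kept their call with DESeq2, 58 with upper-quartile scaling, 44 with the largest peak, 46 with IP counts, 14 without cell line, 41 with the replicate block and 33 to 54 without 1 library. Same-numbered S3 and S4 replicates deviated together with r = 0.0648 in H1 and 0.227 in MEL1 over 5457 genes. The main test did not take the numbers as pairs, so deviations shared in this way are not accounted for in it. The replicate block, which groups same-numbered libraries of a line, gave the 75 genes higher and 18 lower stated above. Depth limits genes near 3 reads per library, among them NRG3, FOXD3, NOG and PTX3 in MEL1.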
